A study of Mus musculus with 6 samples.

Results

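The genes of adenosine, kynurenine and arginine metabolism through which tumours and myeloid cells act on immune cells were compared between whole mouse lungs carrying KP tumours and the KP cell line. The 10 genes were chosen by name, with earlier results of these data known. Entpd1 and Nt5e form extracellular adenosine, Adora2a and Adora2b are its receptors, and Ada removes it. Ido1, Tdo2 and Kynu are enzymes of tryptophan breakdown through kynurenine, and Arg1 and Nos2 both consume arginine. All 10 were among the 20687 gene symbols of the deposited table and among the 15212 genes that passed the filter on low counts. Of the 10, 6 passed that filter through the lung libraries alone (Adora2b, Ido1, Tdo2, Kynu, Arg1 and Nos2), so for these the test could hardly find anything but a higher level in lung.

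The lung group held 3 samples, each pooled from 3 mice of an independent experiment. The C57BL/6 mice were injected with 100000 KP cells by tail vein, and their lungs were taken 28 days later. The comparison group held 3 RNA preparations of the same KP line, labelled with the same strain, and the labels do not say whether these came from separate cultures, give no genotype for the line and list no other agent or allele. Within the cell line group, the spread behind each p-value may then be technical only. No lung without tumour cells was among the samples, so a level in lung adds up KP cells, resident lung cells and recruited cells. Fewer cells of a type and less RNA per cell cannot be told apart in such whole-tissue RNA.

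As background, extracellular ATP is cut to AMP by CD39, the product of Entpd1, and AMP is cut to adenosine by CD73, the product of Nt5e. Adenosine dampens T cells and myeloid cells through receptors that raise cyclic AMP. Tryptophan is oxidised by the Ido1 or the Tdo2 enzyme, and the kynurenine formed activates the aryl hydrocarbon receptor and restrains T cells. Arginase 1 turns arginine into ornithine and urea, whereas inducible nitric oxide synthase, the product of Nos2, turns it into nitric oxide and citrulline, and macrophages are known to switch between these uses.

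Estimated counts summed to between 17786758 and 22862396 per library. On these totals 3 counts, the limit that a count of 0 allows, came to between 0.131 and 0.169 CPM, the count scaled to the size of the library. Gene levels below are in CPM on TMM-scaled library sizes (factors of 0.907 to 1.10), on which this floor differs somewhat. Floors and intervals given here cover counting error only. A library stood apart in each group. Over the tested genes, log2 CPM of cell line replicate 1 correlated with that of the other preparations at 0.965 and 0.964, against 0.991 between replicates 2 and 3. Lung replicate 2 correlated at 0.936 and 0.908 with the other lung libraries, which correlated with each other at 0.980. These values run over genes of one library against another and carry no test. Of the lung epithelium markers, 10 of 10 were higher in lung, with sums of 21024 to 31178 CPM against 3.27 to 4.49 CPM in the cell line, where Sftpa1 and Nkx2-1 had 0 counts.

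Of the 10 genes, 8 were higher in lung, 0 were lower and 2 did not pass the test, namely Nt5e and Ada. Among all tested genes 48.8% were called in either direction, 31.3% higher and 17.5% lower, by edgeR's quasi-likelihood test at a Benjamini-Hochberg adjusted p below 0.05 over all 15212 genes. At an unadjusted p under 0.05 again 0 of the 10 were lower, and DESeq2 and limma-voom called 0 lower as well. Every lung library lay above every cell line library for the same 8 genes, an arrangement seen for 35.6% of tested genes, with groups apart in either direction for 62.2%. The median log2 fold change was 3.55 over the 10 genes and 0.07 over all tested genes. With 6 of the 10 admitted through lung alone, neither the counts nor the median stand as support. At 1 CPM or more in all 3 libraries, 9 of the genes were detected in lung (all but Tdo2) and 3 in the cell line (Nt5e, Adora2a and Ada).

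**Figure D1:**
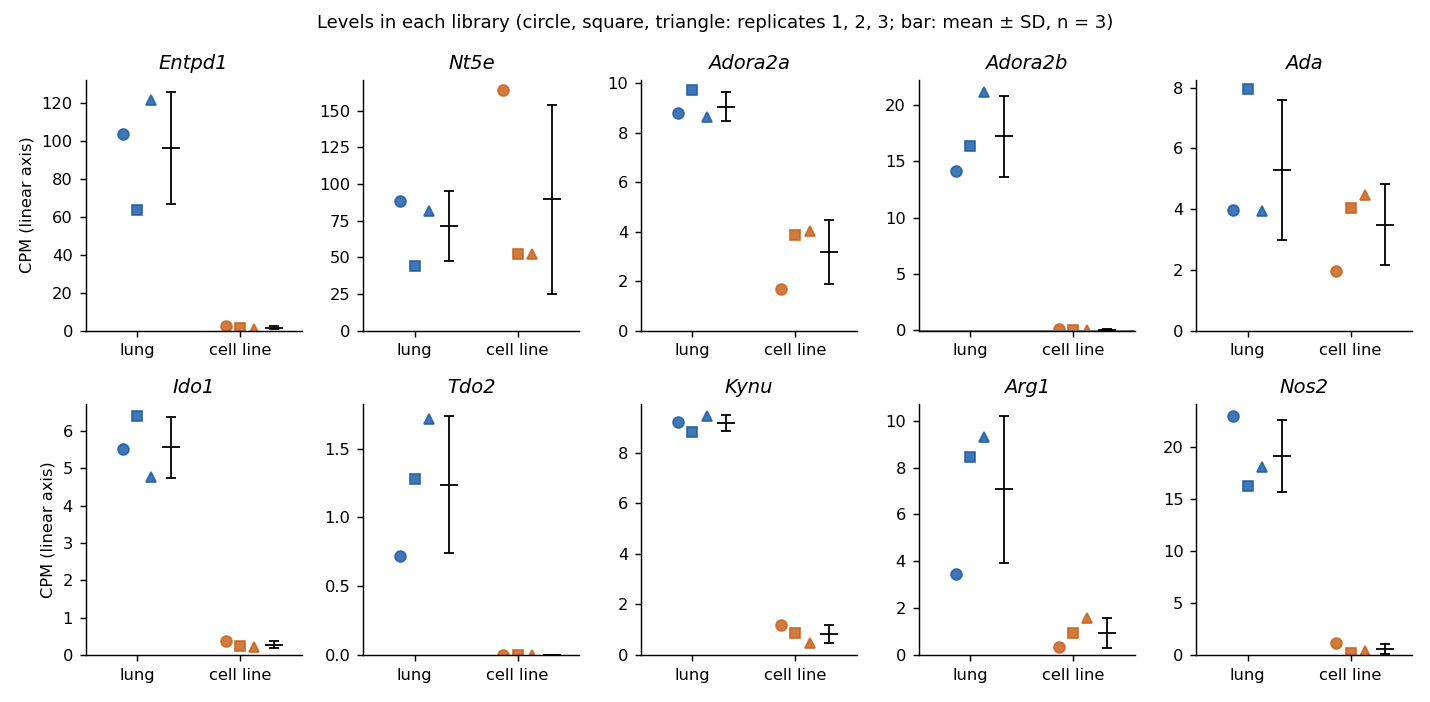
Levels of the 10 genes in CPM on TMM-scaled library sizes, on a linear axis for each gene, with 1 symbol per library and the mean ± SD (n = 3) beside them. Groups are apart for 8 genes. Nt5e and Ada overlap, with cell line replicate 1 at 164 CPM for Nt5e and lung replicate 2 at 7.96 CPM for Ada.

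Markers of immune and vascular cells moved in the same direction as the 8 genes. The macrophage and monocyte list was higher in lung for 9 of 10 genes, with sums of 6879 to 9216 CPM in lung against 134 to 257 CPM. The exception was Mrc1, the mannose receptor, which made up most of the cell line sum in replicates 2 and 3 (163 and 173 CPM, against 31.3 CPM in replicate 1 and 47.5 to 127 CPM in lung). Neutrophil markers were higher for 9 of the 9 tested (207 to 357 against 3.74 to 6.25 CPM), and endothelial markers for 10 of 10 (1387 to 2686 against 25.8 to 32.6 CPM). The cell line libraries were not free of lymphocyte transcripts. B and plasma cell markers summed to 183 to 343 CPM there and 541 to 1180 CPM in lung, with 11 of 11 higher in lung, and T cell markers to 15.6 to 26.6 and 210 to 250 CPM, also with 11 of 11. Dendritic cell markers were higher for 9 of 10, but their sums overlapped (197 to 235 against 218 to 308 CPM), since Fscn1, an actin-bundling protein, stood at 201 to 299.5 CPM in the cell line. None of the B, T, macrophage and monocyte, neutrophil, dendritic or endothelial markers was at 0 counts in all 3 cell line libraries. In the separate alveolar macrophage list, Car4 and Fabp1 had 0 counts in all 3. Pparg of that list was lower in lung (15.9 to 25.5 against 43.2 to 65.1 CPM). The part of these cell types in the levels below was not tested.

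Entpd1, which encodes the ATP- and ADP-cutting enzyme CD39, was far higher in lung than in the cell line. It stood at 104, 63.8 and 122 CPM in lung replicates 1, 2 and 3, and at 2.38, 1.38 and 0.790 CPM in cell line replicates 1, 2 and 3. The lowest lung library thus lay far above the highest preparation of the line. The log2 fold change was 5.89 (SE 0.49, edgeR adjusted p = 5.86e-05). It was 6.34 without cell line replicate 1 and 6.06 without lung replicate 2.

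The counts of Entpd1 came from transcripts with different start sites, and the promoters of both starts are shown because the table tells these transcripts apart. The windows run from 250 bases before to 50 bases after a RefSeq start site, on build GRCm38.p6, plus strand, at chr19:40612116-40612415 (start site 40612366) and chr19:40659520-40659819 (start site 40659770). Entpd1-204 begins 31 bases after the upstream start site in GENCODE M21, and Entpd1-201 begins at the downstream one. Capitals mark 3 kinds of motif. The GC box was searched as the letters GGGCGG. The box named after its letters was searched as CCAAT. The core bound by hypoxia factors was searched as ACGTG, and in its other usual form as GCGTG. Both strands were searched, and marked motifs may overlap.
Entpd1 upstream start: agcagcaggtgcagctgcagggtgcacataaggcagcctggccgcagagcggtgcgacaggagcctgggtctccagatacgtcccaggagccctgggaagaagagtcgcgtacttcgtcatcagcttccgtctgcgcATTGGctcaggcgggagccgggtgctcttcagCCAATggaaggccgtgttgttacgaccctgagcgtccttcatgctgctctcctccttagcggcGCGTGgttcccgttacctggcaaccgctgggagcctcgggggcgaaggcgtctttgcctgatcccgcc
Entpd1 downstream start: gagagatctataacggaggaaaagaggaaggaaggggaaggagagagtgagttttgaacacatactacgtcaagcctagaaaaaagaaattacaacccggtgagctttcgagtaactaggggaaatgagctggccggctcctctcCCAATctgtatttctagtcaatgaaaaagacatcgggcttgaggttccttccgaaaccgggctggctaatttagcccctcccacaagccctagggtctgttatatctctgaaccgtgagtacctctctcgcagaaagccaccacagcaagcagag
The upstream window was 64.0% G and C with 23 CG dinucleotides, and held 2 CCAAT boxes and 1 GCGTG. The downstream window was 48.7% G and C with 10 CG dinucleotides, and held 1 CCAAT box. Over 32851 promoter windows of this length the medians were 52.7% and 7, and a CCAAT box was in 37.4%, GCGTG in 32.4%, ACGTG in 19.6% and a GC box in 35.7% of them. A match is a description of the letters and not a site.

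Most Entpd1 counts were assigned to the downstream start. Entpd1-201 took 86.3%, 78.5% and 90.8% of the gene's counts in lung replicates 1, 2 and 3, and Entpd1-204 took 12.8%, 21.1% and 8.5%. In the cell line, with 90 counts over the 3 libraries, Entpd1-201 took 72.3%, 100.0% and 61.6%. Among the lung libraries the shorter Entpd1-204 (2409 bases against 4221) had its largest share in replicate 2, the library in which long transcripts were low. Isoform estimates share reads, so these shares carry no test.

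Nt5e, which encodes the AMP-cutting enzyme CD73, overlapped between the groups and did not differ past the threshold. It stood at 88.5, 44.1 and 81.2 CPM in lung replicates 1 to 3, and at 164, 52.0 and 52.4 CPM in cell line replicates 1 to 3. Cell line replicate 1 was the highest library of all, and the other preparations lay inside the range of the lung libraries. The log2 fold change was -0.33 (SE 0.50, edgeR adjusted p = 0.614). Its sign rested on cell line replicate 1: without that library it was 0.44 (edgeR adjusted p = 0.325). Without lung replicate 2 it was -0.13, and without both libraries it was 0.70 (edgeR adjusted p = 0.000767), in a fit that takes its spread from the closest pair of each group and gives smaller p-values for that reason. Nt5e-201 held between 99.3% and 100.0% of the counts in every library.

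Within a library, the balance of the 2 adenosine-forming genes differed between the groups by far more than within them. Counts were divided by transcript length and scaled to the same sum in every library (TPM, the usual scale per length), which allows genes to be set side by side. Entpd1 then stood at 1.31, 1.62 and 1.57 times the level of Nt5e in lung replicates 1 to 3, and at 0.0210, 0.0251 and 0.0183 times in the cell line. This ratio does not depend on library scaling, and both leading transcripts are of like length (4221 and 3995 bases). In the libraries that stood apart it was close to that of the others of their group, although cell line replicate 1 had over 3 times the Nt5e level of the other preparations.

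Both adenosine receptors were higher in lung, and Adora2b, which passed the filter through lung alone, by more. Adora2b, which encodes the low-affinity adenosine receptor, stood at 14.1, 16.4 and 21.2 CPM in lung replicates 1 to 3. The cell line held 2 counts, both in replicate 1 (0.0933 CPM), and 0 counts in replicates 2 and 3. The groups were therefore apart, with a ratio of 488 (95% exact interval for counting error 135 to 4038) and a fitted log2 fold change of 7.06 (SE 0.55, edgeR adjusted p = 4.54e-05). With 2 counts in the cell line the fitted value depends on the prior count and the tool: it was 8.21 with a prior count of 0.5, 8.57 with limma-voom and 8.96 with DESeq2. Its promoter window is shown for comparison with those of Entpd1, at chr11:62248734-62249033, build GRCm38.p6, plus strand, with the same marks.
Adora2b start: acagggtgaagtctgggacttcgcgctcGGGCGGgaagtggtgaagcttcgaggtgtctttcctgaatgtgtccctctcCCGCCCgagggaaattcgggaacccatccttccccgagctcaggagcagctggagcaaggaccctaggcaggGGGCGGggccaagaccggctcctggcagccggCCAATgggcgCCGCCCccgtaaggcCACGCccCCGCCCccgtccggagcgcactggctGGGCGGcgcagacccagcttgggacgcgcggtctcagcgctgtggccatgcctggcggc
It was 70.0% G and C with 27 CG dinucleotides, and held 6 GC boxes, 1 CCAAT box and 1 GCGTG. RefSeq windows were matched for Entpd1, Nt5e, Adora2b, Ada and Tdo2, and not for Adora2a, Ido1, Kynu, Arg1 and Nos2.

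Adora2a, which encodes the high-affinity adenosine receptor known for restraining T cells, stood at 8.79, 9.73 and 8.62 CPM in lung replicates 1 to 3. In cell line replicates 1 to 3 it stood at 1.68, 3.86 and 4.004 CPM. The lung libraries were close to each other and the groups did not overlap. The log2 fold change of 1.48 (SE 0.38, edgeR adjusted p = 0.0131) was the smallest among the 8 genes that were higher. It was 1.17 without cell line replicate 1 and 1.37 without lung replicate 2. Per transcript length, Adora2b stood at 2.26, 2.16 and 3.28 times the level of Adora2a in lung, and at 0.0611 times or 0 in the cell line, so the order of the receptors was opposite in the 2 groups.

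Ada, which encodes adenosine deaminase, the enzyme that turns adenosine into inosine, did not differ past the threshold. It stood at 3.96, 7.96 and 3.95 CPM in lung replicates 1 to 3, and at 1.96, 4.03 and 4.48 CPM in the cell line. Lung replicate 2 was the highest library and cell line replicate 1 the lowest, and the other libraries of both groups lay between 3.95 and 4.48 CPM. The log2 fold change was 0.59 (SE 0.45, edgeR adjusted p = 0.307). It was 0.12 without lung replicate 2, 0.29 without cell line replicate 1 and -0.11 without both.

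**Figure D2:**
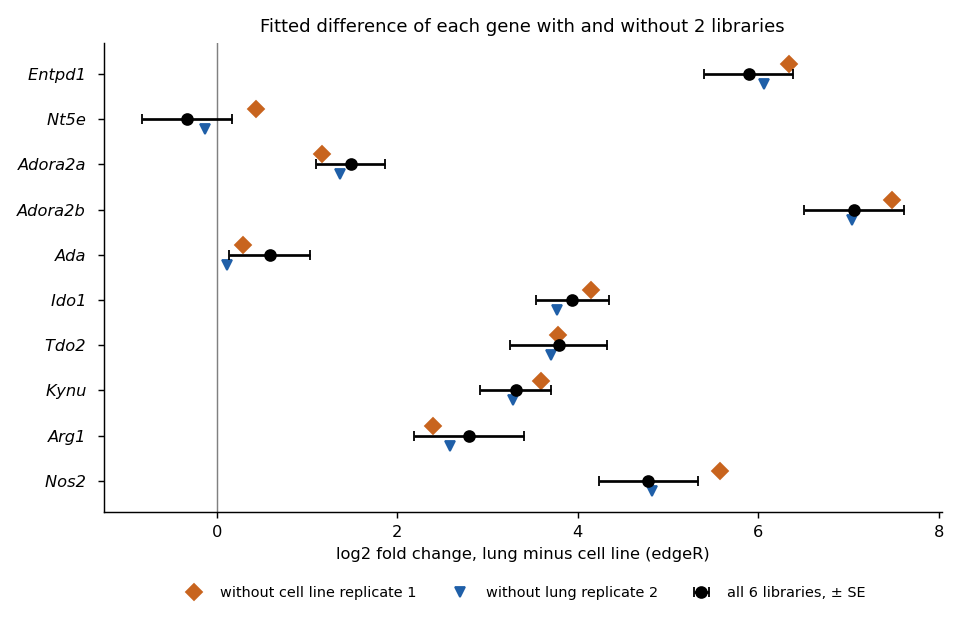
Log2 fold change (lung minus cell line, edgeR) of the 10 genes over all 6 libraries with its SE (black), without cell line replicate 1 (orange diamonds) and without lung replicate 2 (blue triangles). Nt5e alone changes sign, from -0.33 to 0.44 without cell line replicate 1, and Nos2 moves most among the genes that were higher, from 4.78 to 5.58.

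All 3 genes of tryptophan breakdown were higher in lung, at low levels, against 31.3% of all tested genes. All 3 passed the filter through lung alone, so this count does not stand as support. Ido1, the interferon-inducible dioxygenase that opens the pathway, stood at 5.51, 6.41 and 4.78 CPM in lung replicates 1 to 3. In the cell line it stood at 0.373, 0.230 and 0.211 CPM, from 8, 4 and 4 counts. The groups were apart, with a log2 fold change of 3.94 (SE 0.41, edgeR adjusted p = 0.000129), 4.15 without cell line replicate 1 and 3.77 without lung replicate 2. Ido1-201 held 93.7%, 100.0% and 73.0% of its lung counts. All 8 counts of cell line replicate 1 were assigned to Ido1-202, which starts further inside the gene, and all counts of the other preparations to Ido1-201.

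Tdo2, the dioxygenase for tryptophan best known from liver, was the lowest of the 10 genes. It stood at 0.719, 1.28 and 1.71 CPM in lung, from 18, 29 and 33 counts, and had 0 counts in all 3 cell line libraries. Lung was at least 23.0-fold higher, taken against 3 counts over the cell line group (edgeR adjusted p = 0.00173). Its fitted log2 fold change of 3.79 depends on the prior count and is no bound.

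Kynu, which encodes kynureninase, an enzyme further down the pathway, had close values in the lung libraries on the CPM scale. It stood at 9.23, 8.85 and 9.45 CPM in lung replicates 1 to 3 and at 1.17, 0.864 and 0.474 CPM in the cell line. The groups were apart and the log2 fold change was 3.31 (SE 0.39, edgeR adjusted p = 0.000275). Leaving out cell line replicate 1 gave 3.59, and leaving out lung replicate 2 gave 3.28. Kynu-201 held 94.3%, 88.9% and 77.9% of the lung counts.

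Both arginine-consuming genes were higher in lung, and Nos2 by more. Both passed the filter through lung alone, so the test could hardly find another direction. Nos2 stood at 22.9, 16.2 and 18.1 CPM in lung replicates 1 to 3, and at 1.17, 0.230 and 0.369 CPM in the cell line, from 25, 4 and 7 counts. The groups were apart, and cell line replicate 1 was the highest preparation. The log2 fold change was 4.78 (SE 0.55, edgeR adjusted p = 0.000233), and 5.58 without cell line replicate 1. Nos2-201 held between 83.1% and 94.6% of the lung counts and 100.0% of those of the cell line.

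Arg1 stood at 3.48, 8.45 and 9.30 CPM in lung replicates 1 to 3, and at 0.327, 0.922 and 1.58 CPM in the cell line. Lung replicate 1 was low and still lay above all preparations. The log2 fold change was 2.79 (SE 0.61, edgeR adjusted p = 0.00593). Leaving out cell line replicate 1 gave 2.39, and leaving out lung replicate 2 gave 2.58. The relation of Nos2 to Arg1 was uneven. Per transcript length, Nos2 stood at 2.36 times the level of Arg1 in lung replicate 1 and at 0.684 and 0.700 times in lung replicates 2 and 3, and at 1.26, 0.0881 and 0.0822 times in the cell line. Nos2 exceeded Arg1 only in replicate 1 of each group, and the shared number was not read as a pairing. The cell line ratios rest on 25, 4 and 7 counts of Nos2 against 7, 16 and 30 of Arg1. In lung replicate 2 the longer Nos2 deviated by -0.33 and the shorter Arg1 by 0.56 on the log2 scale, along the length trend described below.

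Set side by side per transcript length, the adenosine-forming genes led in lung. Mean TPM was 50.5 ± 21.9 (SD, n = 3) for Entpd1, 34.5 ± 16.2 for Nt5e and 17.5 ± 5.91 for Adora2b. Arg1 (8.80 ± 4.34), Nos2 (8.77 ± 2.89), Kynu (7.08 ± 1.83), Adora2a (6.71 ± 0.729), Ido1 (6.46 ± 0.637) and Ada (5.48 ± 1.11) followed, and Tdo2 was last (1.21 ± 1.06). Ranges of neighbours in this order overlapped in every case but Ada and Tdo2. In the cell line Nt5e was first at 40.0 ± 29.2, and its lowest library (23.2) lay above the highest of Ada (4.69), the next gene at 3.67 ± 1.39. Adora2a followed at 2.71 ± 1.26, then Arg1 (1.13 ± 0.747), Entpd1 (0.853 ± 0.610), Kynu (0.681 ± 0.447), Ido1 (0.302 ± 0.0898) and Nos2 (0.251 ± 0.217), all with ranges that overlap the next. Nos2 did not overlap Adora2b (0.0303 ± 0.0525), which came before Tdo2 at 0 in all 3 libraries.

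**Figure D3:**
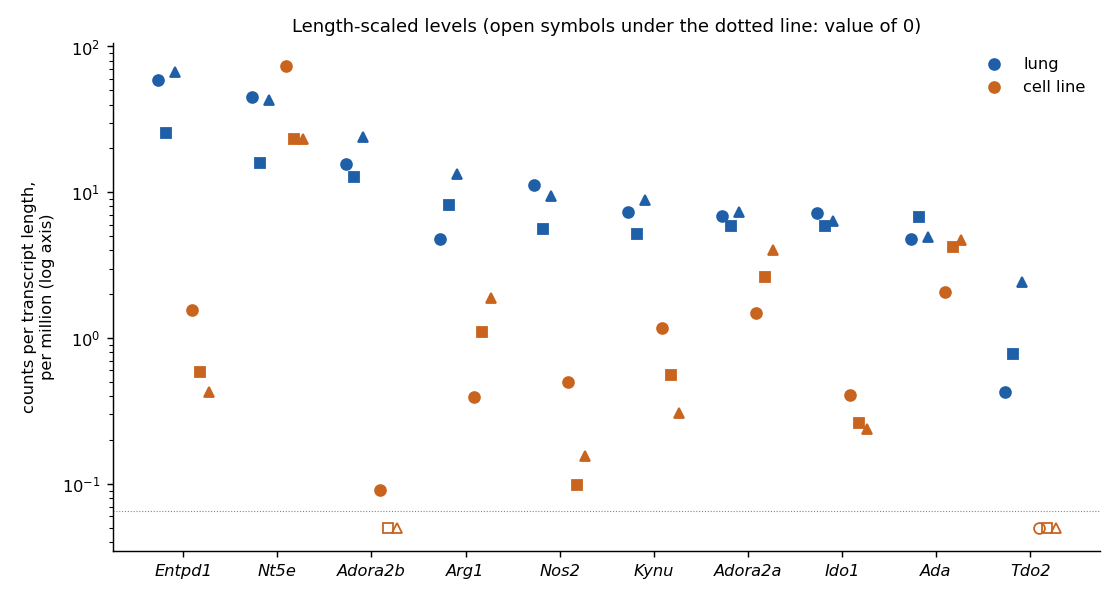
Levels per transcript length (TPM), on a log axis, for lung (blue) and cell line (orange), with circle, square and triangle for replicates 1, 2 and 3 and open symbols for values of 0. Nt5e is the gene that stays high in the cell line (23.2 to 73.7 TPM), while Entpd1 goes from 25.7 to 66.9 in lung to 0.427 to 1.55 in the cell line.

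Lung replicate 2 deviated from the other lung libraries along transcript length, and most of the 10 genes lay along that trend. Over all tested genes its median log2 deviation was 0.76 in the quartile with the shortest leading transcripts (up to 1713 bases) and -0.98 in the longest (from 4278 bases). Nt5e, Entpd1 and Nos2, with transcripts of 3995 to 4221 bases, deviated by -0.94, -0.81 and -0.33. Ada (1688 bases), Arg1 (1477 bases) and Ido1 (1560 bases) deviated by 0.99, 0.56 and 0.32, and the other 4 genes by -0.08 to 0.18. Tdo2 (3431 bases), at 0.18, lay against the trend, in a quartile with a median of -0.49. Across the 10 genes, which share that library, the deviation correlated with length at Pearson's r = -0.81 and Spearman's rho = -0.82, given as a description. In cell line replicate 1 the quartile medians ran from 0.00 to 0.05, so its deviations (1.65 for Nt5e, 1.70 for Nos2, -1.63 for Arg1, -1.18 for Adora2a and -1.08 for Ada) did not go with such a trend over all genes.

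**Figure D4:**
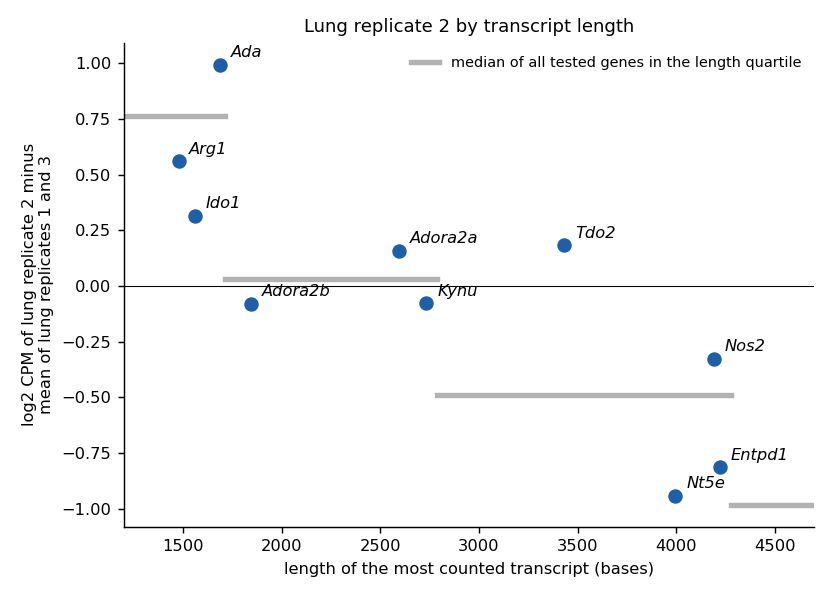
Log2 CPM of lung replicate 2 minus the mean of lung replicates 1 and 3 for the 10 genes (points) by the length of the most counted transcript, with the median of all tested genes in each length quartile (grey bars, cut at the edges of the axis). Ada lies highest at 0.99 and Nt5e lowest at -0.94.

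Since the cell line libraries held lymphocyte transcripts, replicates 2 and 3, the closest pair, were compared gene by gene. From replicate 2 to 3 the marker sums had ratios of 0.586 (B and plasma cells), 0.610 (T cells), 0.684 (neutrophils), 0.792 (endothelium) and 0.899 (macrophages and monocytes, most of it Mrc1). Mrc1 rose from 163 to 173 CPM, while every other gene of its list fell, Lyz2 from 55.1 to 31.4 CPM. The macrophage ratio thus does not describe the rest of that list. Nt5e had a ratio of 1.01 (95% exact interval for counting error 0.920 to 1.10), Adora2a of 1.04 (0.737 to 1.46) and Ada of 1.11 (0.7999 to 1.55). Of those 5 marker ratios, the Nt5e interval holds none, that of Adora2a the endothelial and macrophage ones, and that of Ada the macrophage one. Each of these intervals holds the ratio of the lung epithelium sum, 0.973, from 4.49 and 4.37 CPM. Among sums without a computed ratio, dendritic (304 and 308 CPM) and alveolar macrophage (72.2 and 72.8 CPM) were near equal. Most of the first was Fscn1 (292 and 299.5 CPM) and most of the second Pparg (62.4 and 65.1 CPM). These sums thus do not describe the rest of their lists either. The natural killer, fibroblast and red cell sums fell from replicate 2 to 3. Entpd1 had 0.572 (0.279 to 1.14) and Kynu 0.549 (0.212 to 1.34), from 24 and 15 counts in replicate 2. Their intervals hold all of these marker ratios as well as equality. Arg1 had 1.72 (0.906 to 3.37), while Ido1 and Nos2 had too few counts to be placed (4 each in replicate 2). From replicate 2 to 1 the marker sums had ratios from 0.521 (macrophages and monocytes) to 1.14 (neutrophils). Over the same libraries Nt5e had 3.15, Entpd1 1.72, Kynu 1.35, Ada 0.486, Adora2a 0.435 and Arg1 0.354. The marker ratios are given without intervals, and the source of these transcripts was not tested. Detection in these libraries does not by itself place a transcript in the KP cells.

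Other genes listed around adenosine and its precursors, not all of which handle adenosine itself, were found in both directions. Of 34 listed, 31 were in the table and 28 were tested, of which 14 were higher, 4 lower and 10 below the threshold, against 31.3% higher and 17.5% lower among all tested genes. Of the 14, 7 passed the filter through lung alone. The median log2 fold change was 0.97. Dpp4, the surface peptidase CD26 that anchors adenosine deaminase in humans, had 70.7 ± 29.4 CPM in lung against 2.39 ± 0.936 CPM (log2 fold change 4.83, edgeR adjusted p = 0.000133). Enpp2, autotaxin, stood at 60.2 ± 24.1 against 8.05 ± 4.49 CPM and Cd38, an NAD-consuming ectoenzyme, at 54.1 ± 8.68 against 8.08 ± 2.33 CPM. The ATP-gated channel P2rx7 stood at 24.8 ± 11.4 against 10.3 ± 0.888 CPM, a call (edgeR adjusted p = 0.0259) that was lost without any library other than lung replicate 2 (edgeR adjusted p = 0.0769 to 0.0853), with limma-voom (adjusted p = 0.0564) and with protein-coding transcripts alone (log2 fold change 0.72, edgeR adjusted p = 0.187). The other adenosine receptor genes, Adora1 and Adora3, named after their values were seen, were also higher (2.26 to 4.67 against 0.0527 to 0.230 CPM, and 2.52 to 3.64 against 0 to 0.230 CPM). Both passed the filter through lung alone, so the test could hardly find another direction.

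Genes of the adenosine list that were lower in lung handle pyrophosphate, nucleosides and methylation. Ank, which moves pyrophosphate and ATP out of cells, stood at 37.9 ± 5.31 against 283 ± 37.6 CPM (log2 fold change -2.90, edgeR adjusted p = 7.02e-05). Ahcy, which releases adenosine inside the cell from S-adenosylhomocysteine, stood at 119.7 ± 26.7 against 622 ± 100.3 CPM. Enpp1, an ATP-cutting ectoenzyme, stood at 33.7 ± 10.05 against 71.5 ± 13.6 CPM and the nucleoside transporter Slc29a2 at 2.66 ± 0.730 against 7.76 ± 2.66 CPM. The call of Enpp1 (edgeR adjusted p = 0.0182) was lost without cell line replicate 2 or 3 (0.0506 and 0.0581) and with library size alone (0.0519), and that of Slc29a2 (0.0139) without cell line replicate 3 (0.0506).

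The wider tryptophan list held 21 tested genes of 26, with 10 higher (47.6%), 3 lower (14.3%) and 8 below the threshold, against 31.3% and 17.5% among all tested genes, and a median log2 fold change of 1.24. Of the 10, 4 passed the filter through lung alone. Kmo, kynurenine monooxygenase, which competes with kynureninase for kynurenine, had 17.6 ± 3.65 CPM in lung against 2.08 ± 0.691 CPM (log2 fold change 3.02, edgeR adjusted p = 0.000253). Ahr, the aryl hydrocarbon receptor that kynurenine activates, stood at 83.6 ± 40.4 against 26.7 ± 1.45 CPM. Gpr35, a receptor for kynurenic acid, stood at 13.6 ± 2.10 against 0.933 ± 0.903 CPM, a log2 difference of 3.71 that was 4.72 without cell line replicate 1. Ddc, which decarboxylates aromatic amino acids, stood at 12.2 ± 4.50 CPM against 4 counts over the cell line libraries.

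Lower in lung were the aryl hydrocarbon receptor target Cyp1b1, the amino acid transporter Slc7a5 and the mitochondrial aminotransferase Got2. Cyp1b1 stood at 11.6 ± 1.81 against 98.4 ± 20.2 CPM (log2 fold change -3.08, edgeR adjusted p = 8.08e-05), the opposite direction to its receptor Ahr. Other listed targets of that receptor, named after their values were seen, did not share this call. Cyp1a1 (log2 fold change 1.89, edgeR adjusted p = 0.150) and Tiparp (-0.38, 0.266) were below the threshold, and Ahrr was not tested. Slc7a5, which carries tryptophan and kynurenine, stood at 32.6 ± 7.01 against 254 ± 84.2 CPM, and Got2 at 113 ± 3.33 against 333 ± 46.8 CPM. Ido2, the relative of Ido1, was named after its values were seen and stood at 0.973 to 1.36 CPM in the lung libraries and at 0.843 to 1.21 CPM in those of the line.

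The arginine, nitric oxide and polyamine list also held genes of both directions. Of 35 genes, 31 were tested, with 12 higher (38.7%), 9 lower (29.0%) and 10 below the threshold, against 31.3% and 17.5% among all tested genes, and a median log2 fold change of 0.41. Of the 12, 3 passed the filter through lung alone. Higher in lung were Slc7a2, an arginine transporter used by macrophages, at 56.2 ± 26.1 against 1.88 ± 1.47 CPM (log2 fold change 4.82, edgeR adjusted p = 0.000636, and 5.60 without cell line replicate 1), and Ddah2, which removes inhibitors of nitric oxide synthase, at 55.5 ± 19.5 against 4.74 ± 0.268 CPM. Oaz2, an antizyme that restrains polyamine synthesis, stood at 203 ± 31.3 against 69.0 ± 11.97 CPM. Oat, ornithine aminotransferase, stood at 216 ± 9.04 against 114 ± 9.37 CPM, a call (edgeR adjusted p = 0.00995) that was lost without cell line replicate 2 or 3 (0.0920 and 0.0760). Named after their values were seen, Arg2 and Nos3, the isoenzymes of mitochondria and endothelium, and Ass1, which rebuilds arginine from citrulline, were higher too (6.31 to 9.51 against 0.115 to 0.233 CPM, 9.86 to 17.8 against 0 to 0.576 CPM, and 22.5 to 33.04 against 1.001 to 1.91 CPM). Of these, Arg2 and Nos3 passed the filter through lung alone, so for them the test could hardly find another direction.

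Of the 9 lower genes, the 4 with the highest levels were Slc7a1, Odc1, Aldh18a1 and Gatm, and the others, named after their values were seen, were Srm, Sms, Smox, Paox and Pycr1. Slc7a1, the general arginine transporter, had 32.9 ± 14.6 CPM in lung against 286 ± 177 CPM (log2 fold change -3.12, edgeR adjusted p = 0.00193, and -2.49 without cell line replicate 1). Odc1, ornithine decarboxylase, stood at 147.5 ± 30.7 against 398 ± 138 CPM. Aldh18a1, of proline synthesis, stood at 43.8 ± 7.70 against 208 ± 113 CPM and Gatm, of creatine synthesis, at 35.6 ± 3.55 against 159 ± 67.4 CPM. Slc7a1 and Aldh18a1 were high in cell line replicate 1 (490 and 338 CPM, against 178 and 189, and 141 and 143 CPM, in replicates 2 and 3), whereas Gatm and Odc1 were low there (81.6 against 199 and 198, and 238 against 477 and 478 CPM). Among the arginine transporters, Slc7a2 was higher and Slc7a1 lower, and Slc7a3, named after its values were seen, was not called (log2 fold change 0.71, edgeR adjusted p = 0.306).

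**Figure D5:**
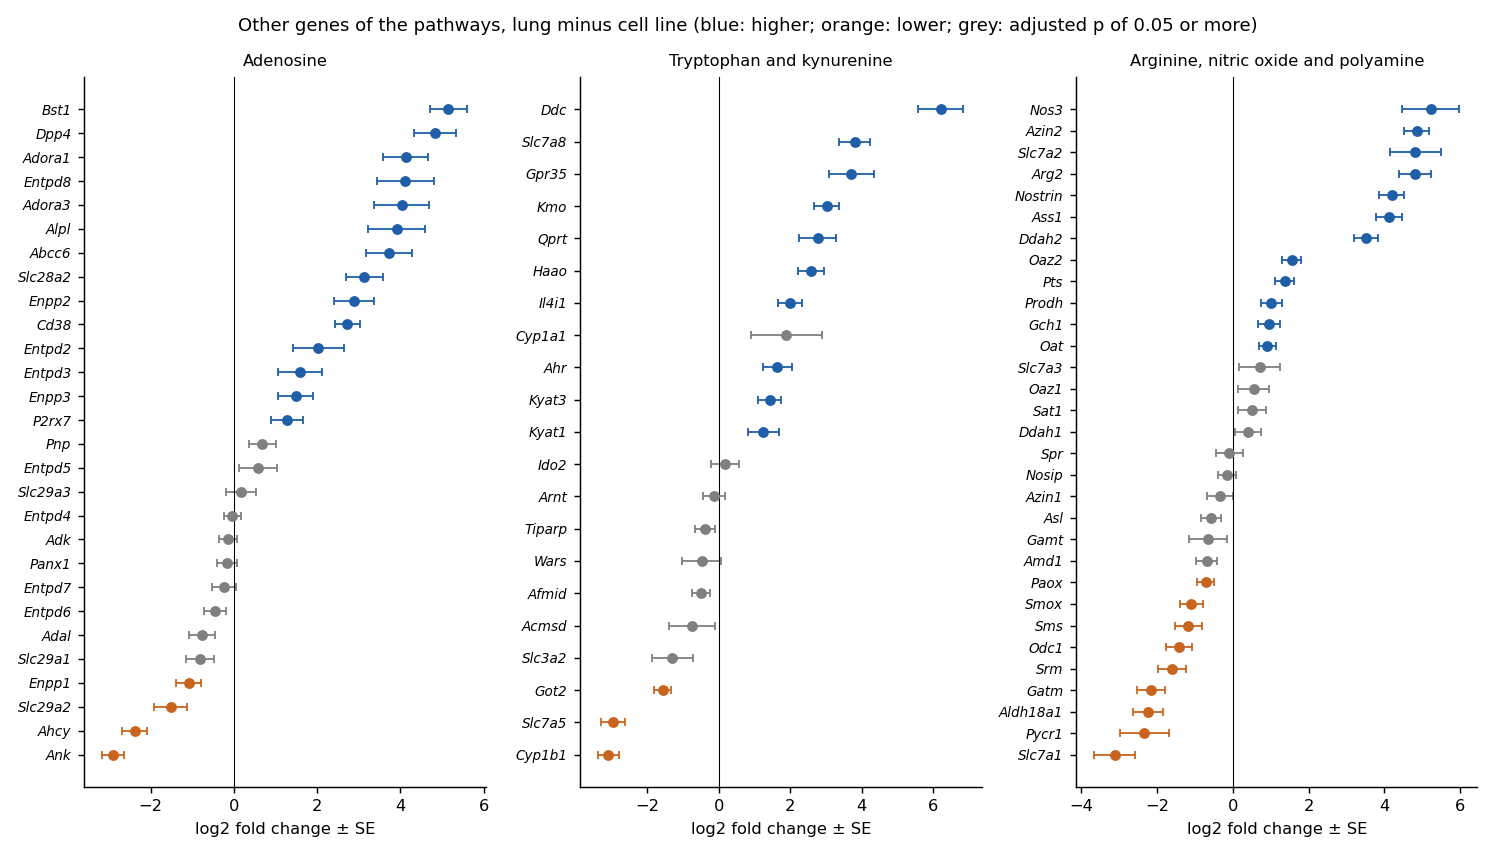
Log2 fold change ± SE (lung minus cell line, edgeR) of the other tested genes of the adenosine, tryptophan and arginine lists, with blue for higher in lung, orange for lower and grey for an adjusted p of 0.05 or more. The lists hold 14, 10 and 12 higher genes and 4, 3 and 9 lower genes.

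The genes most like each of the 10 were sought by the root mean square distance of log2 CPM, centred on each gene's mean, over the 6 libraries. Entpd1 was closest to Ccr2 (0.127 on the log2 scale) and Pdgfrb (0.166), and Nt5e to Nhlrc3 (0.0760) and Mtm1 (0.0884). Adora2a was closest to Fam149a (0.121), Adora2b to Wscd1 (0.186) and Ada to Wfdc2 (0.0614). Ido1 was closest to Mageh1 (0.0802), Tdo2 to Timp4 (0.101) and Kynu to Exoc3l2 (0.0830). Arg1 had no close partner, with Acaa1b at 0.317 and Pnp2, which shares reads with the near-identical Pnp, at 0.351, and Nos2 was closest to Ccser1 (0.249). Such distances over 6 libraries in 2 groups mostly reflect the difference between the groups and its size.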

How the data were processed

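Per the labels' protocols, lungs were digested with collagenase, total RNA was extracted and cleaned on columns, and libraries were made with a stranded mRNA kit; the same text stands on the cell line samples. The authors deposited estimated counts per transcript, and FastQC 0.11.9, Salmon 1.4.0, DESeq2 1.32.0 and GRCm39 are named, without roles, per the submitters' processing notes. Of 76776 transcripts, 76521 (99.67%) matched GENCODE M21, which belongs to build GRCm38, so it was used for names, lengths and start sites alone. They were summed to 20687 symbols, 19 of which joined more than 1 gene identifier. The unmatched 255 transcripts held 0.107% to 0.416% of the counts and were left out.

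Sums were rounded and tested with edgeR 4.0.16 (R 4.3.3; robust quasi-likelihood F test, TMM scaling, expression filter by group, group alone in the model). SE is the fold change divided by the root of F. Alternatives included DESeq2 1.42.0 and limma-voom (limma 3.58.1), and the test was tried on simulated data. Sequences are from RefSeq. The members, the lists of other genes, the marker lists and the naming rule (of each list, the 4 genes past the threshold with the highest level in each direction; of each marker list, 2; for each member, the 2 genes of most similar pattern) were chosen with earlier results of these data known. Not every gene under that rule is reported. The lung epithelium, macrophage, neutrophil, dendritic, T, B and endothelial marker lists are reported; the others gave, for higher of tested, 9 of 10 (alveolar macrophage), 6 of 7 (natural killer), 10 of 10 (fibroblast and smooth muscle) and 7 of 7 (red cell).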

Additional observations from a re-analysis of the deposited data

How the results depend on the processing

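The 8 higher genes kept their call and direction in each fit with a value, the fits without 1 library included, and the 2 others kept theirs except as follows. Log2 fold changes without 1 library in turn ran from -0.67 to 0.44 for Nt5e and from 0.12 to 0.76 for Ada. Without cell line replicate 1 and lung replicate 2 together, Nt5e was at 0.70 (past the threshold), Ada at -0.11, the genes lower in lung numbered 5425, and the lower genes of the adenosine, tryptophan and arginine lists 7, 7 and 15; that fit takes its spread from the closest pairs. Under a filter of at least 10 counts in each of the 6 samples, 4 of the 10 genes were tested and 2 passed (Entpd1 and Adora2a), the higher genes of the adenosine and tryptophan lists numbered 7 and 6, and 2555 genes were higher and 1701 lower, because that filter drops genes near 0 in the cell line. With library size alone, 1728 genes were lower; the higher genes made up 75.1% of the calls, where TMM scaling gave 64.1%, and the median log2 fold change of all genes was 0.30 against 0.07. Leaving out 1 library gave 4249 to 5190 genes higher and 1820 to 3773 lower, and 5 to 10 lower in the arginine list (5 without lung replicate 1). A prior count of 0.5 changed no call and could change none, since it enters the fold change and not the test. No pairing by replicate number was seen: deviations of same-numbered samples correlated at -0.04, 0.08 and -0.08, and 2 of the 3 lung samples correlated best with another number. Such correlations cannot show that same-numbered samples were handled apart. With the replicate block, 4634 genes were higher and 2526 lower. Precision is limited by counts under 10 in the cell line for Ido1, Tdo2 and Adora2b in all 3 libraries, for Nos2 in 2 and for Arg1 and Kynu in 1.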

Other observations

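Some amino acid genes of the lists followed Nt5e in being high in cell line replicate 1, and they were picked after their values were seen. Slc3a2, the heavy chain partner of Slc7a5, stood at 783 CPM in that library against 183 and 191 CPM in replicates 2 and 3, and at 147 to 165 CPM in lung. Wars, the tryptophan tRNA synthetase, stood at 414 against 104 and 103 CPM, and at 134 to 176 CPM in lung. Pycr1, of proline synthesis, stood at 93.4 against 17.3 and 18.9 CPM. Nt5e stood at 164 against 52.0 and 52.4 CPM in the same libraries.

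Aadat, a kynurenine aminotransferase, did not pass the filter on low counts and had 0 counts in all 3 lung libraries against 22 counts over the cell line libraries (0.467, 0.403 and 0.263 CPM). It was picked after its values were seen.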
